A study of Mus musculus with 12 samples.

Results

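The genes described here are 10 of the 52858 genes in the deposited expression tables, the interleukin-1 (IL-1) axis and the inflammasome sensor that feeds it. They were chosen by symbol: the ligands Il1a, Il1b, Il18 and Il33, the receptor antagonist Il1rn, the receptors Il1r1, Il1r2 and Il1rl1, the sensor Nlrp3 and the prostaglandin synthase gene Ptgs2. All 10 were found, and 9 passed a filter on low values. RNA sequencing was done on 12 libraries of mouse heart tissue, 3 in each of 4 groups. C57-non-IR hearts came from C57BL/6J mice and were perfused ex vivo on a Langendorff apparatus without interruption. C57-IR hearts came from the same strain and went through no-flow global ischemia and then reperfusion (IR) on that apparatus. Slit2-non-IR and Slit2-IR hearts came from Slit2-Tg mice on the C57BL/6J background and were treated in these same ways. Slit2-Tg mice carry the human Slit2 cDNA, which encodes a secreted ligand of Robo receptors, driven by a CMV promoter. That promoter is not restricted to a cell type, and the transgene was made by injection into oocytes of C57 and CBA hybrids. The mice were adult males. The comparisons ask how IR changes these genes in each genotype, and whether Slit2-Tg hearts differ from C57BL/6J hearts before or after IR.

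IL-1 alpha and IL-1 beta are the founding cytokines of their family and signal through the same receptor, IL-1R1, with the accessory protein IL-1RAP. IL-1 alpha is active as it is made and acts as an alarm signal when cells die, whereas IL-1 beta and IL-18 are made as inactive precursors. The inflammasome, in which NLRP3 senses cell damage and recruits caspase-1 through the adaptor ASC, cuts these precursors. Nlrp3 and Il1b are themselves switched on by NF-kB, a step called priming. The axis has its own brakes, the antagonist IL-1RN, which occupies IL-1R1 without signalling, and IL-1R2, a decoy receptor. IL-33 is a nuclear alarm cytokine of fibroblasts and endothelium whose receptor is ST2, the product of Il1rl1. Ptgs2 encodes cyclooxygenase-2, an inducible enzyme of prostaglandin synthesis and a classical IL-1 target. In the heart, resident macrophages, fibroblasts and endothelial cells are known sources of these transcripts, and RNA levels say nothing of the cutting of the precursors.

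Libraries held 16601154 to 24841291 reads on genes, with at least 19.7% of them on mitochondrial genes. Values are FPKM, read fragments scaled for gene length and library size by the authors, and the read number of each value was worked back from them. Marker genes of cardiomyocytes were abundant in every library, with 8 genes summing to 14887 to 22719 FPKM. In 2 libraries, values stood out in ways that touch the results. C57-IR replicate 2 had the highest value of the 12 libraries for 6 of the 10 genes, and Slit2-IR replicate 1 carried a sum of 6 atrial markers of 1758 FPKM against 26.6 to 246 in the other libraries. The human cDNA has no row in the tables, so the transgene was not read here.

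The genes differed widely in level (per-library values are plotted by group). Without IR, Ptgs2, Il1r1, Il33 and Il1b formed an upper tier. In C57-non-IR hearts their mean FPKM values were 2.75, 2.66, 2.48 and 1.72, and no neighbours in that order were separated by their replicates. Il1b and the next gene, Il1rl1 at 0.246 FPKM, were separated, and so they were in Slit2-non-IR hearts. Il1a, Il1rn and Il1r2 stood at the bottom of both non-IR groups, at 0.0646, 0.0434 and 0.00809 FPKM in C57-non-IR hearts. Averaged over the 12 libraries, Ptgs2 was above 70.5% of all tested genes and Il1r2 above 3.13%, so the precision of the genes in the bottom tier is set by small numbers of reads. After IR, Ptgs2 and Il1b led the order in both genotypes.

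**Figure D1:**
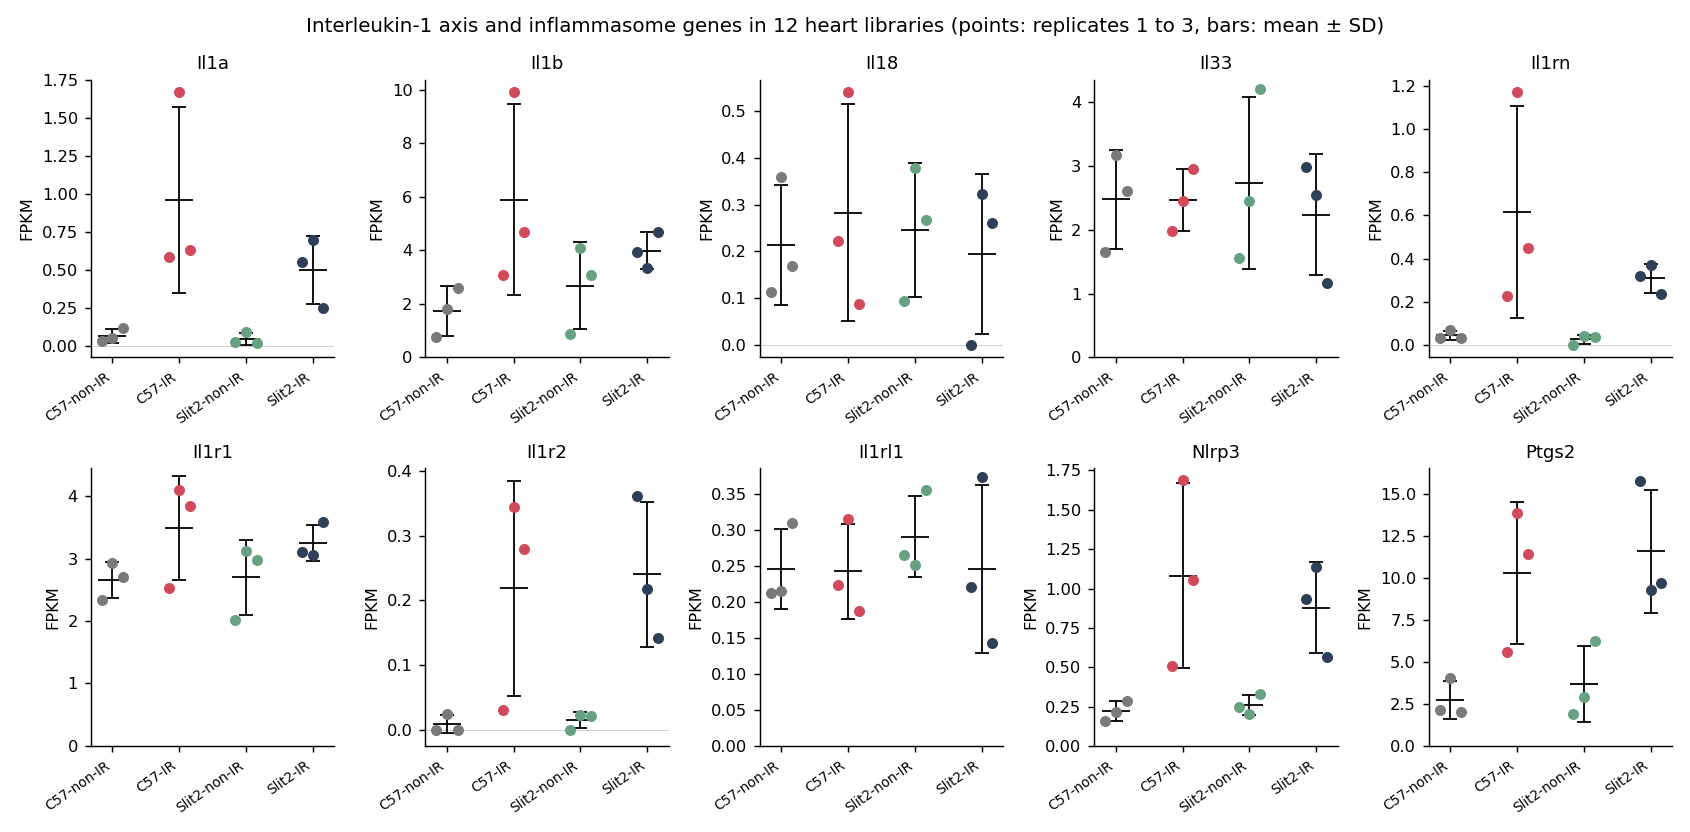
FPKM of the 10 genes in each of the 12 libraries, by group. Points are replicates 1 to 3 from left to right, and the bar and whiskers are the mean and SD of the 3 libraries. Il1a, Il1rn and Nlrp3 lie higher in every IR library than in any non-IR library, whereas Il18, Il33 and Il1rl1 overlap among all 4 groups. Il1r2 is separate in FPKM only, since C57-IR replicate 1 held 1 read, against at most 1 in any non-IR library.

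IR raised 5 of the 9 tested genes when its effect was averaged over the 2 genotypes, and lowered none. Ptgs2, Il1a, Nlrp3, Il1rn and Il1r2 passed (limma, adjusted p under 0.05 over all tested genes). Of all 15258 genes tested, 531 (3.48%) passed in this comparison, and 356 (2.33%) passed and were higher. The count of 5 is not set against these shares, because Il1a, Il1rn and Il1r2 entered the test through their IR libraries only, with at most 4, 8 and 1 reads in any non-IR library against the 10 that the filter asks for in 3 libraries. Of the 6 genes with at least 10 reads in every library, Nlrp3 and Ptgs2 passed. At an unadjusted p under 0.05 there were 7 of the 9 genes, with 15.9% of all tested genes, and the same limit holds for the counts within each genotype. For Il1a, Il1rn and Nlrp3, the 6 IR libraries did not overlap the 6 non-IR libraries. Il1r2 was separate in FPKM but not in reads, since C57-IR replicate 1 held 1 read, against at most 1 in any non-IR library. How many of all tested genes separate in this way was not counted, so this is a description only. The limit from the filter holds here too for Il1a, Il1rn and Il1r2. Differences on this scale understate the fold change of low genes, so ratios of mean FPKM are given too.

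The ligand Il1a (ENSMUSG00000027399, chr2:129299610-129309972, minus strand, GRCm38) was close to the limit of detection without IR. It was at 0.0297, 0.0469 and 0.117 FPKM in C57-non-IR hearts, which rests on 7 reads in all. C57-IR hearts reached 0.581, 1.67 and 0.631 FPKM. Slit2-non-IR hearts had 0.0244, 0.0879 and 0.0200 FPKM, and Slit2-IR hearts had 0.549, 0.694 and 0.250 FPKM. Every IR library was thus above every non-IR library, and the highest single value was that of C57-IR replicate 2. Mean FPKM was 13.4-fold higher over the IR libraries than over the non-IR libraries. The averaged difference was 0.67 ± 0.12 (SE) on the log2(FPKM + 1) scale, with an adjusted p of 0.0120. From summed reads, the ratio was 15.1 in C57BL/6J hearts (95% interval 7.11 to 38.5) and 11.4 in Slit2-Tg hearts (4.97 to 32.2), intervals that cover counting error only. An uncharacterised gene, Gm14023, lies on the opposite strand within these coordinates and held 4 to 18 reads per library. Whether reads were counted by strand is not given in the sources used here, so the 2 genes cannot be fully told apart.

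Il1b (ENSMUSG00000027398, chr2:129364570-129371139, minus strand) was the most abundant ligand after IR. C57-non-IR hearts had 0.770, 1.80 and 2.61 FPKM and C57-IR hearts 3.06, 9.91 and 4.69 FPKM. In C57BL/6J hearts the groups did not overlap, and their mean values differed 3.42-fold. Slit2-non-IR hearts had 0.885, 4.07 and 3.07 FPKM, and Slit2-IR hearts had 3.95, 3.33 and 4.68 FPKM. In Slit2-Tg hearts the groups overlapped, since Slit2-non-IR replicate 2 was above 2 of the 3 Slit2-IR libraries, and the means differed 1.49-fold. Averaged over genotypes the difference was 0.91 ± 0.29 (SE), with an unadjusted p of 0.0100 and an adjusted p of 0.134, so Il1b did not pass. With the replicate number as a block it did (adjusted p 0.0425).

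The other ligands did not pass the test or could not be tested. Il33 (ENSMUSG00000024810, chr19:29925114-29960718, plus strand) ranged from 1.17 to 2.99 FPKM in IR libraries and from 1.55 to 4.20 FPKM in non-IR libraries. These ranges overlap almost wholly, and the averaged difference was -0.09 (95% interval -0.53 to 0.35, adjusted p 0.899). Il18 (ENSMUSG00000039217, chr9:50554827-50581840, plus strand) held 62 reads over the 12 libraries, 0 to 11 per library, and was the gene that did not pass the filter. Its sums were 13 reads in C57-non-IR, 17 in C57-IR, 18 in Slit2-non-IR and 14 in Slit2-IR hearts. Bco2 and Tex12 overlap Il18 on the opposite strand, and Bco2 itself held 113 reads. A change in Il18 was not detectable at this depth, as the ratio of C57-IR to C57-non-IR reads had a counting interval of 0.561 to 2.74.

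Both brakes on the receptor rose as well. Il1rn (ENSMUSG00000026981, chr2:24336853-24351494, plus strand), the antagonist, was at 0.0318, 0.0670 and 0.0313 FPKM in C57-non-IR hearts and at 0.228, 1.17 and 0.450 FPKM in C57-IR hearts. It was at 0, 0.0392 and 0.0357 FPKM in Slit2-non-IR hearts and at 0.320, 0.368 and 0.235 FPKM in Slit2-IR hearts. No IR library overlapped a non-IR library, and the 3 Slit2-IR values lay closer together than the 3 C57-IR values. The averaged difference was 0.47 ± 0.11 (SE, adjusted p 0.0412), and mean FPKM differed 13.5-fold.

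Il1r2 (ENSMUSG00000026073, chr1:40074079-40125231, plus strand), the decoy receptor, was almost absent without IR. It had 0, 1 and 0 reads in C57-non-IR hearts and 0, 1 and 1 in Slit2-non-IR hearts. After IR there were 1, 13 and 12 reads in C57BL/6J hearts and 14, 10 and 6 in Slit2-Tg hearts. Only C57-IR replicate 1 stayed near the non-IR level, at 0.0300 FPKM against at most 0.0243 FPKM. The ratio of summed reads was 24.4 (counting interval 4.0 to 999) in C57BL/6J hearts and 15.6 (3.95 to 134) in Slit2-Tg hearts. The averaged difference was 0.27 ± 0.06 (SE, adjusted p 0.0418). The genes Gm16894, on the opposite strand, and Gm37347, on the same strand, overlap Il1r2 and held 16 and 4 reads in all.

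The calls of both brakes lay close to the threshold. Il1rn passed in 8 of 19 alternative settings and Il1r2 in 8 of 19, while Il1a passed in 19 of 19, Nlrp3 in 19 of 20 and Ptgs2 in 20 of 20. Il1rn did not pass without any one of the C57-non-IR, Slit2-non-IR or Slit2-IR replicates or without C57-IR replicate 3. Il1r2 did not pass without any one of the C57-non-IR or Slit2-non-IR replicates, C57-IR replicates 2 and 3 or Slit2-IR replicates 1 and 2. On the recovered reads with limma-voom, a setting added after the data were seen, both passed, with adjusted p of 0.00929 for Il1rn and 0.0157 for Il1r2. Over all alternatives the adjusted p ranged from 0.00173 to 0.104 for Il1rn and from 0.00235 to 0.0948 for Il1r2.

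The signalling receptors did not pass. Il1r1 (ENSMUSG00000026072, chr1:40225080-40317257, plus strand) was at 2.34, 2.93 and 2.70 FPKM in C57-non-IR hearts, and at 2.53, 4.09 and 3.84 FPKM in C57-IR hearts. Slit2-non-IR hearts had 2.02, 3.11 and 2.97 FPKM, and Slit2-IR hearts had 3.10, 3.05 and 3.59 FPKM. The groups overlapped in both genotypes. The averaged difference was 0.25 (95% interval 0.00 to 0.49), with an unadjusted p of 0.0494 and an adjusted p of 0.313. Il1rl1 (ENSMUSG00000026069, chr1:40429570-40465415, plus strand), the IL-33 receptor, lay between 0.143 and 0.374 FPKM in all libraries. Its averaged difference was -0.03 (-0.14 to 0.08, adjusted p 0.866).

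Nlrp3 (ENSMUSG00000032691, chr11:59541568-59566956, plus strand), the inflammasome sensor, was at 0.159, 0.217 and 0.285 FPKM in C57-non-IR hearts and at 0.508, 1.69 and 1.05 FPKM in C57-IR hearts. Slit2-non-IR hearts had 0.249, 0.203 and 0.331 FPKM and Slit2-IR hearts 0.935, 1.14 and 0.564 FPKM. IR and non-IR libraries did not overlap. The averaged difference was 0.65 ± 0.12 (SE, adjusted p 0.0157), and mean FPKM was 4.07-fold higher. The ratio of reads was 5.01 (counting interval 3.69 to 6.91) in C57BL/6J hearts and 3.35 (2.57 to 4.41) in Slit2-Tg hearts.

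Ptgs2 (ENSMUSG00000032487, chr1:150100031-150108227, plus strand) was the most abundant of the genes and had the largest difference of the 9 on this scale. C57-non-IR hearts had 2.15, 4.06 and 2.04 FPKM, and C57-IR hearts had 5.59, 13.9 and 11.4 FPKM. Slit2-non-IR hearts had 1.93, 2.91 and 6.25 FPKM, and Slit2-IR hearts had 15.8, 9.26 and 9.70 FPKM. The groups did not overlap within either genotype, although Slit2-non-IR replicate 3 lay above C57-IR replicate 1. The highest value was that of Slit2-IR replicate 1, the library with the high atrial markers, whose part in this value was not tested. The averaged difference was 1.52 ± 0.27 (SE, adjusted p 0.0104), and mean FPKM was 3.40-fold higher. Ptgs2 also passed without Slit2-IR replicate 1.

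**Figure D2:**
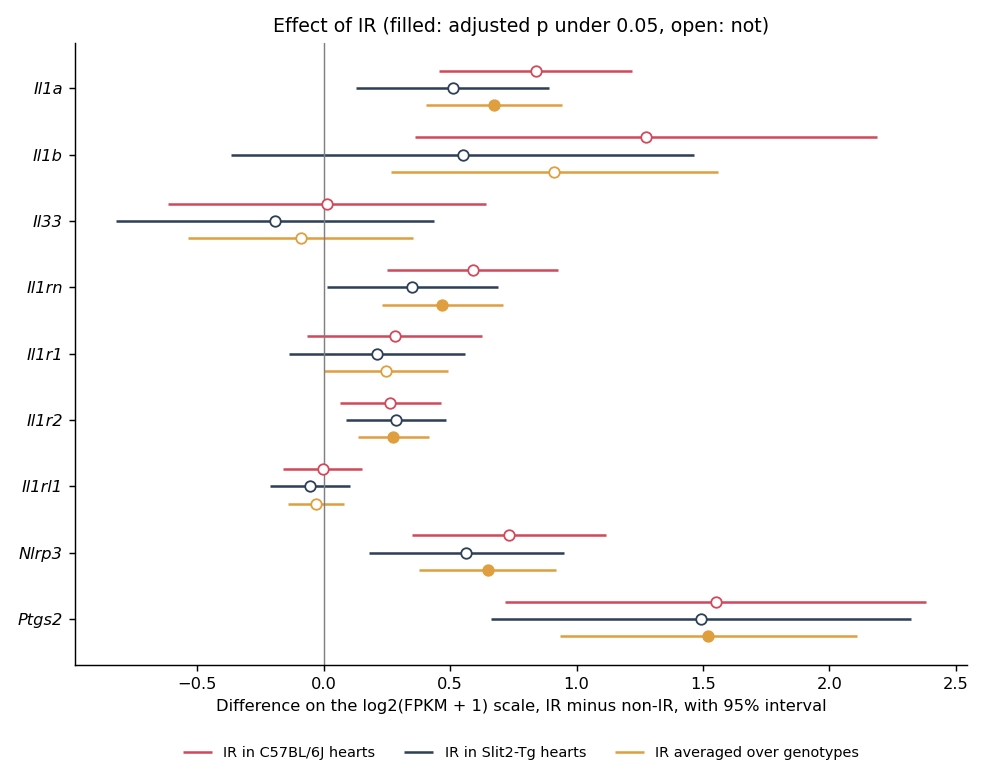
IR minus non-IR on the log2(FPKM + 1) scale for the 9 tested genes, in C57BL/6J hearts, in Slit2-Tg hearts and averaged, with 95% intervals. Filled points have an adjusted p under 0.05. Only averaged values are filled, and the intervals of the genotypes overlap for each gene.

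Within a single genotype, none of the 9 genes passed after adjustment. In C57BL/6J hearts 67 of all tested genes (0.439%) passed, and the lowest adjusted p among the 9 was that of Il1a, at 0.0784. At an unadjusted p under 0.05, Il1a, Il1b, Il1r2, Il1rn, Nlrp3 and Ptgs2 were higher, 6 of 9, beside 8.96% of all tested genes. In Slit2-Tg hearts 77 genes (0.505%) passed, or 194 with the replicate number as a block, and none of the 9 did in either fit. The lowest adjusted p in Slit2-Tg hearts was that of Ptgs2, at 0.120. There were 5 of 9 at the unadjusted threshold, all the former but Il1b, beside 11.2% of all tested genes. With limma-voom the counts were 0 in both genotypes, with 6 and 5 at the unadjusted threshold. The count in C57BL/6J hearts rested on C57-IR replicate 1, since Il1a, Il1r2, Il1rn, Nlrp3 and Ptgs2 passed without it. The count in Slit2-Tg hearts went from 0 to 2 (Il1a and Il1rn) without C57-IR replicate 2, which enters that fit through the shared variance only.

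The promoters of 4 of the genes that rose are shown, each of which passed with IR averaged over genotypes. Each is the 250 bases before the RefSeq start nearest to the gene's start in the tables (GRCm38.p6), 5' to 3' on the gene's strand. Capitals mark matches to any of 5 motifs searched on both strands: the NF-kB consensus, the AP-1 motif TGANTCA, the C/EBP motif TTGCNNAA, the cyclic AMP response element TGACGTCA and the TATA box TATAAA. Il1b, which did not pass, is shown beside Il1a.
Il1a: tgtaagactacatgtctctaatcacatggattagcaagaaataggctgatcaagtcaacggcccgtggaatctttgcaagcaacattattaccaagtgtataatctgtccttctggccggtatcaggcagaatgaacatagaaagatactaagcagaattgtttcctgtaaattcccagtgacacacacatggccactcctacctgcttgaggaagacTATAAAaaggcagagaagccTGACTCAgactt
Il1b: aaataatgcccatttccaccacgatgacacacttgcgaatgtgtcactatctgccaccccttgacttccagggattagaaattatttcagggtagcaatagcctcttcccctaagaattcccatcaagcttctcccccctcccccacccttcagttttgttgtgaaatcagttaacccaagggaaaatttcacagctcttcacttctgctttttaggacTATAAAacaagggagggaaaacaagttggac
Il1rn: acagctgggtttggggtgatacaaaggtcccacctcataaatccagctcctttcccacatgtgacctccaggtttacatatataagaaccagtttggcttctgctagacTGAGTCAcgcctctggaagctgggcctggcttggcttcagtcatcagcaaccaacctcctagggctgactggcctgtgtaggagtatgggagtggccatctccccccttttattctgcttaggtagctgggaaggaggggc
Nlrp3: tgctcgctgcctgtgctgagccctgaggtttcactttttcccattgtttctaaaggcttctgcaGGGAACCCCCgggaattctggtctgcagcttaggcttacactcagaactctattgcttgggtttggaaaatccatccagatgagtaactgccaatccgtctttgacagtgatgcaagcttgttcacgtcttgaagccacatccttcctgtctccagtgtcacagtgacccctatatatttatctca
Ptgs2: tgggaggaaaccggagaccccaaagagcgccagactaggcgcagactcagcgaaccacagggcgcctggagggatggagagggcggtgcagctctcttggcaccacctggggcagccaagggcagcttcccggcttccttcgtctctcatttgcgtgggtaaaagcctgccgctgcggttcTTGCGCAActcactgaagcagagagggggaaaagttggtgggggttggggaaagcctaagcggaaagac

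These windows are chr2:129309973-129310222, minus strand for Il1a, chr2:129371140-129371389, minus strand for Il1b and chr2:24336610-24336859, plus strand for Il1rn. They are chr11:59541319-59541568, plus strand for Nlrp3 and chr1:150099781-150100030, plus strand for Ptgs2. Il1a and Il1b each hold a TATA box, from -32 and from -31 relative to the start, a motif found in 12.4% of 32851 RefSeq promoter windows of this length. The AP-1 motif (6.75% of windows) lies at -12 in Il1a and at -141 in Il1rn. The NF-kB consensus (7.25%) lies at -186 in Nlrp3, and the C/EBP motif (9.56%) at -69 in Ptgs2. The cyclic AMP response element (1.55%) is in none of the 5 windows, and no motif is in all of them. The RefSeq start of Il1r2 lies 12014 bases from the start in the tables, and its window is not shown. A match describes letters only and does not show that a factor binds there.

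None of the 9 genes passed in the comparison of Slit2-Tg with C57BL/6J hearts after IR. Here 7 of all tested genes (0.0459%) passed, and 482 (3.16%) did at the unadjusted threshold. None of the 9 genes was among either, or, with limma-voom, among its 6 genes. The replicate numbers of these groups met the rule for pairing, and with the replicate block Il1a reached an unadjusted p of 0.0387 (adjusted p 0.999), or 0.0423 with limma-voom and the block. Il1a averaged 0.498 ± 0.227 FPKM (SD of 3 libraries) after IR in Slit2-Tg hearts and 0.960 ± 0.614 FPKM in C57BL/6J hearts. The difference was -0.36 (95% interval -0.74 to 0.02, or -0.69 to -0.02 with the block) with an adjusted p of 1. Il1rn averaged 0.308 ± 0.0672 FPKM against 0.617 ± 0.494 FPKM, a difference of -0.26 (-0.60 to 0.07). For Il1b the means were 3.99 ± 0.675 FPKM and 5.89 ± 3.58 FPKM, a difference of -0.35 (-1.26 to 0.56). The groups overlapped for all 10 genes.

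The size of these differences depended on which C57-IR library was left out. C57-IR replicate 2 had 1.67 FPKM of Il1a, 9.91 of Il1b, 1.17 of Il1rn and 1.69 of Nlrp3, each the highest of the 12 libraries. Without it, the difference for Il1a was -0.11 (-0.35 to 0.13) and for Il1rn -0.03 (-0.19 to 0.13). Those for Il1b and Nlrp3 changed sign, to 0.04 and 0.08. C57-IR replicate 1 had the lowest value of its group for each of these 4 genes. Its marker sums also differed from those of replicates 2 and 3. Macrophage and monocyte markers summed to 142 FPKM against 279 and 317, and replicate 1 was lowest for these in every group. Fibroblast markers summed to 178 against 314 and 323, and cardiomyocyte markers to 21135 against 17084 and 17395. The part of these sums was not tested. Without C57-IR replicate 1 the differences between genotypes were larger. They were then -0.44 (-0.73 to -0.15, unadjusted p 0.00657) for Il1rn, -0.49 (-0.89 to -0.09, 0.0208) for Il1a, -0.33 (-0.64 to -0.03, 0.0367) for Nlrp3 and -0.67 (-1.63 to 0.29, 0.152) for Il1b. None passed after adjustment in either fit, by limma, with adjusted p of 0.905 or more. The remaining genes differed by 0.20 (Ptgs2), 0.03 (Il1r2), 0.00 (Il1rl1), -0.06 (Il1r1) and -0.14 (Il33) in the fit of all libraries. The interval for Ptgs2, -0.63 to 1.03, shows how wide a range of differences these data allow.

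**Figure D3:**
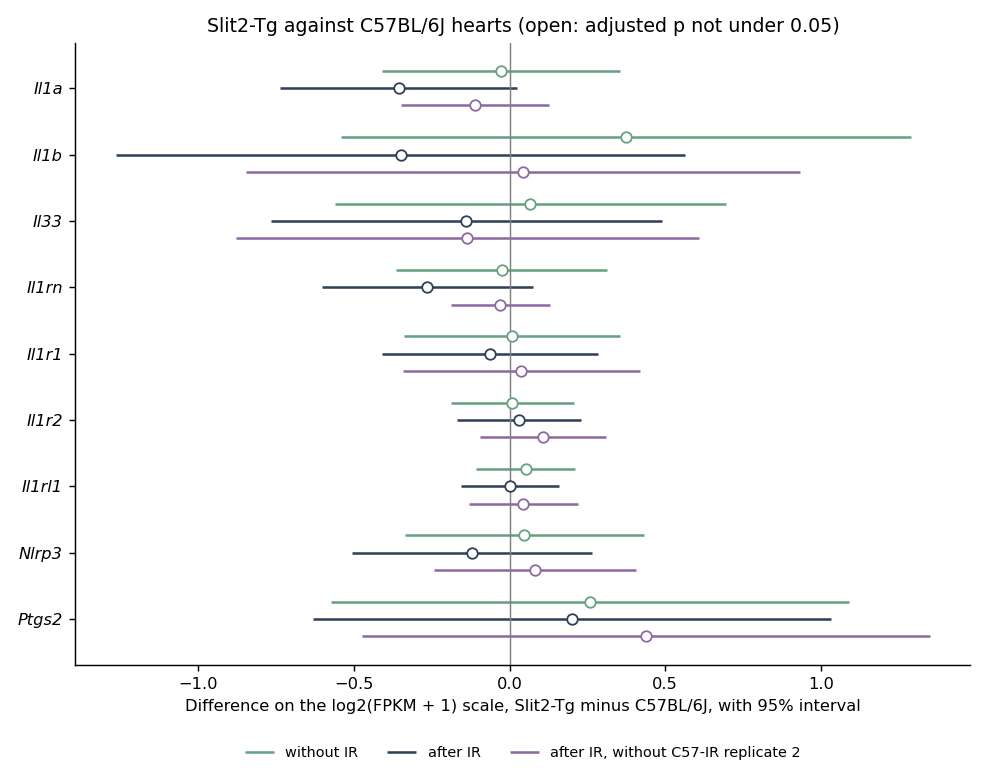
Slit2-Tg minus C57BL/6J on the log2(FPKM + 1) scale for the 9 tested genes, without IR, after IR, and after IR without C57-IR replicate 2, with 95% intervals. All points are open, as no adjusted p was under 0.05, and leaving out the 1 library moves Il1a from -0.36 to -0.11.

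No difference between genotypes was detected for these genes in hearts without IR. Of all tested genes 6 (0.0393%) passed and 485 (3.18%) did at the unadjusted threshold, and none of the 9 was among them, nor among the 4 that passed with limma-voom. The largest difference of the 9 was that of Il1b, at 0.37 (-0.54 to 1.29), which reflects means of 2.67 ± 1.63 FPKM and 1.72 ± 0.920 FPKM. The effect of IR was not shown to depend on genotype. In the interaction test 0 of all tested genes (0%) passed with limma and 0 with limma-voom, with 282 (1.85%) at the unadjusted threshold and 0 of the 9 genes among them. The interaction was -0.72 (-2.02 to 0.57) for Il1b, -0.33 (-0.87 to 0.21) for Il1a and -0.17 (-0.71 to 0.37) for Nlrp3.

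Levels within a library were set against each other where 2 genes act at one step. Il1rn was 0% to 3.98% of the summed FPKM of Il1a and Il1b in non-IR libraries and 4.77% to 10.1% in IR libraries, without overlap. Il1r2 was at most 0.830% of Il1r1 without IR and 1.19% to 11.6% after it. The decoy and the antagonist thus remained minor beside their partners in FPKM. For Il1rn this rests on the gene lengths used, 5535 bases against 1974 for Il1a and 1907 for Il1b. In reads, C57-IR hearts held 206 of Il1rn, 113 of Il1a and 676 of Il1b. Slit2-IR hearts held 114, 66 and 505. Which transcripts of these genes were present was not tested. Il1b exceeded Il1a by 22.3- to 153-fold without IR and by 4.80- to 18.7-fold after IR. Ptgs2 stood at 0.682 to 2.11 times the constitutive cyclooxygenase gene Ptgs1 without IR and at 2.71 to 9.82 times after IR. These ratios share the small read numbers of Il1a, Il1rn and Il1r2 and were not tested.

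Most of the listed target genes of the axis rose with IR (averaged differences are plotted by list). The list was chosen with earlier results of these data known, and no test was made between lists. Of 15 tested IL-1 and NF-kB target genes, 12 rose with IR averaged over genotypes and 0 fell. Of all tested genes, 3.48% passed in this comparison and 2.33% passed and were higher, shares that stand beside the other lists too. The median difference of the 15 was 1.71, against 0.00 over all tested genes. Given how the list was chosen, its count and median are a description only. Il6, an acute-phase cytokine, rose from 0.121, 0.420 and 0.333 FPKM to 4.51, 23.5 and 18.5 FPKM in C57BL/6J hearts. In Slit2-Tg hearts it rose from 0.119, 0.696 and 0.342 to 13.2, 10.3 and 10.1 FPKM. Its averaged difference was 3.29 (adjusted p 0.000501). Tnfaip3, which encodes the NF-kB brake A20, rose by 1.71 (adjusted p 0.000575). The others were the cytokines Tnf (2.09) and Lif (0.80), the chemokines Cxcl1 (2.14), Cxcl2 (2.24), Ccl2 (1.71) and Ccl7 (1.76), the adhesion genes Sele (2.51) and Icam1 (1.70), and the regulators Nfkbiz (1.46) and Zc3h12a (1.15). Those not passing, named after their values were seen, were Vcam1 (0.79, adjusted p 0.0860), Nfkbia (0.93, adjusted p 0.171) and Lcn2 (-0.15, adjusted p 0.844). Of the 12, Il6, Tnfaip3, Sele and Lif passed in each genotype on its own, and Tnf in C57BL/6J hearts (limma, adjusted p 0.0462), with no interaction passing. Of all tested genes, 0.439% passed in C57BL/6J hearts and 0.505% in Slit2-Tg hearts. These genes also respond to other signals than IL-1.

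Among 12 tested genes of IL-1 receptor signalling, 1 rose and 0 fell, with a median difference of 0.05. Myd88, the adaptor that joins the receptor to its kinases, rose by 0.63 (adjusted p 0.0298), from 2.84 to 4.33 FPKM across the non-IR libraries to 4.32 to 8.48 FPKM across the IR libraries. Irak4, the first kinase of that complex, differed by -0.19 (adjusted p 0.117). Among 12 tested inflammasome genes other than Nlrp3, 1 rose and 0 fell, with a median of 0.02. Casp4, the mouse caspase-11 that senses bacterial lipopolysaccharide inside cells, rose by 1.01 (adjusted p 0.00761). It was at 0.633, 0.812 and 0.95 FPKM in C57-non-IR hearts and at 1.78, 4.56 and 2.48 FPKM in C57-IR hearts. In Slit2-Tg hearts it went from 0.403, 1.09 and 0.926 FPKM to 2.40, 3.09 and 1.89 FPKM, so the groups did not overlap in either genotype. The next lowest p was that of the channel gene Panx1, at 0.14 (adjusted p 0.382). The core partners of NLRP3, named here whatever their values, did not pass. They were the adaptor Pycard (0.02, adjusted p 0.928), Casp1 (-0.17, 0.651), the pore gene Gsdmd (-0.13, 0.700) and Nek7 (0.02, 0.942).

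Of 14 tested prostanoid genes other than Ptgs2 none passed, and their median was 0.03. The lowest p-values were those of Ptger4, a prostaglandin E2 receptor (0.52, adjusted p 0.152), and Ptgds, prostaglandin D synthase (-0.94, adjusted p 0.153). Of 3 tested other receptors of the family none passed, with Sigirr, a receptor that dampens signalling, at -0.18 (adjusted p 0.326) and Il1rl2, the IL-36 receptor, at 0.14 (adjusted p 0.344). The IL-18 binding protein gene Il18bp, the only other ligand-side gene tested, differed by 0.02 (adjusted p 0.961). The IL-36 ligand genes, listed under their older symbols Il1f6, Il1f8 and Il1f9, held 0 reads in all libraries. In the 2 comparisons of genotypes and in the interaction, none of these listed genes passed.

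**Figure D4:**
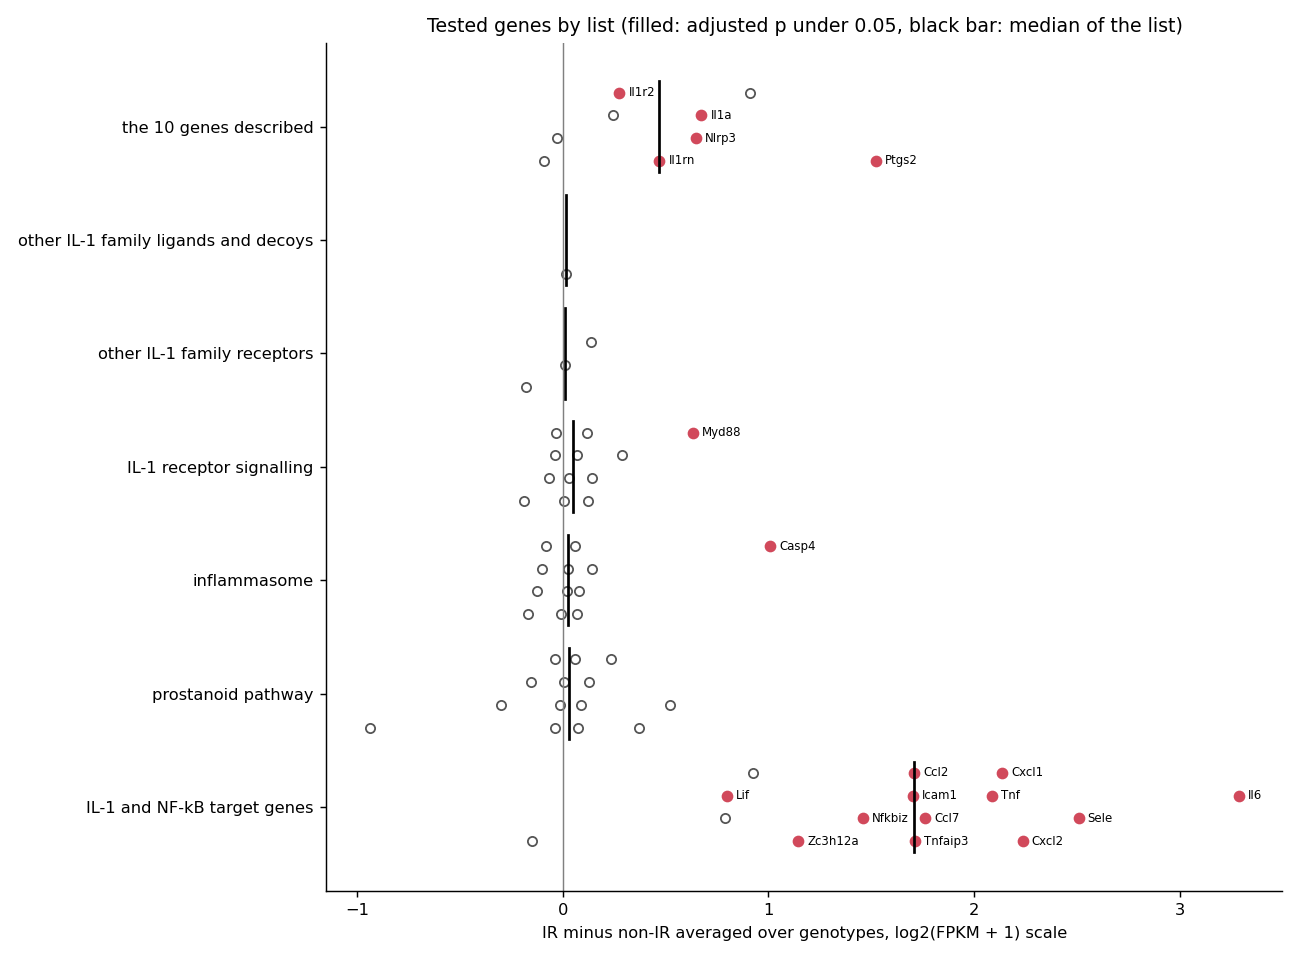
Averaged IR difference on the log2(FPKM + 1) scale for each tested gene, by list. Filled and named points have an adjusted p under 0.05, and black bars are list medians. The 12 filled target genes lie from 0.80 (Lif) to 3.29 (Il6), while receptor signalling and inflammasome genes cluster at 0 apart from Myd88 and Casp4.

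The tissue held macrophage RNA, and sums of neutrophil markers were low. The 12 neutrophil markers summed to 0.477 to 2.12 FPKM without IR and to 0.499 to 1.67 FPKM after IR. Ly6g and Elane held 0 reads in all libraries. Mmp9 and Csf3r held 401 and 279 reads in all and were above 0 in every library, and S100a9 and S100a8 held 22 and 12. Of the 12, 8 had at most 10 reads in all. The 12 macrophage and monocyte markers summed to 181 to 320 FPKM without IR and to 142 to 317 FPKM after IR. The ranges of these macrophage sums overlap. With averaged IR the median difference of the 10 tested markers was -0.15, with 1 above 0. For Slit2-IR minus C57-IR it was -0.14, with 0 above 0. In the interaction it was -0.13, again with 0 above 0. In each of these comparisons 0 of the 10 passed. Il1b per 1000 FPKM of the 12 macrophage and monocyte markers was 4.26, 5.63 and 9.39 in C57-non-IR and 21.6, 35.5 and 14.8 in C57-IR hearts. It was 4.36, 14.5 and 12.3 in Slit2-non-IR and 23.4, 14.3 and 20.9 in Slit2-IR hearts, where Slit2-non-IR replicate 2 and Slit2-IR replicate 2 were nearly level. Mast cell markers summed to 12.2 FPKM in C57-IR replicate 2, the highest of the libraries, which ranged from 3.75 FPKM, and their part in that library's cytokine values was not tested. Other marker sums did move with IR. The 8 mesothelial markers summed to 2.37 to 5.16 FPKM in C57-non-IR and 6.59 to 7.70 FPKM in C57-IR hearts, without overlap. In Slit2-Tg hearts the sums overlapped, at up to 5.21 FPKM without IR and 3.30 to 8.13 FPKM after it. Of these 8, the keratin genes Krt8 and Krt18, named after their values were seen, rose with averaged IR, by 0.87 and 0.73 (limma, adjusted p 0.00177 and 0.00486), and both passed in C57BL/6J hearts. Msln, which encodes mesothelin, ranged from 0.0684 to 1.89 FPKM with IR and non-IR libraries overlapping. The 6 atrial markers summed to 26.6 to 88.1 FPKM in C57-non-IR and 90.3 to 246 FPKM in C57-IR hearts, again without overlap, and to 41.3 to 114 and 71.0 to 1758 FPKM in Slit2-Tg hearts, with 0 of 6 passing. The 5 blood markers summed to 4.53 to 49.0 FPKM without IR and 1.47 to 12.9 FPKM after it, with a median difference of -0.85 and 0 of 4 tested passing. The 8 fibroblast markers had a median difference of 0.29, with all 8 above 0 in C57BL/6J hearts and 0 passing, and sums of 171 to 291 FPKM without IR and 178 to 323 FPKM after it. Sums of 8 endothelial (187 to 294 and 177 to 277 FPKM), 12 lymphocyte (2.47 to 3.90 and 2.17 to 3.69 FPKM) and 7 adipose and lung markers (0 to 18.7 and 0.105 to 27.2 FPKM) overlapped. For IR in C57BL/6J hearts the endothelial markers had a median difference of -0.16, with 0 of 8 above 0. In Slit2-Tg hearts their median was 0.01, with 5 of 8 above 0, and 0 passed in either genotype. By library, the adipose and lung sums were 0.105, 22.3 and 27.2 FPKM in C57-IR and 9.71, 1.69 and 0.837 FPKM in Slit2-IR hearts. Their median difference was 0.58 for IR in C57BL/6J hearts and -0.67 for Slit2-IR minus C57-IR, with 0 of 6 tested passing in either. The part of these cell types in the rise of Il1a, Il1rn, Il1r2, Nlrp3 and Ptgs2, or in the differences between genotypes, was not tested. In bulk tissue, more cells of a type and more RNA per cell cannot be told apart.

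**Figure D5:**
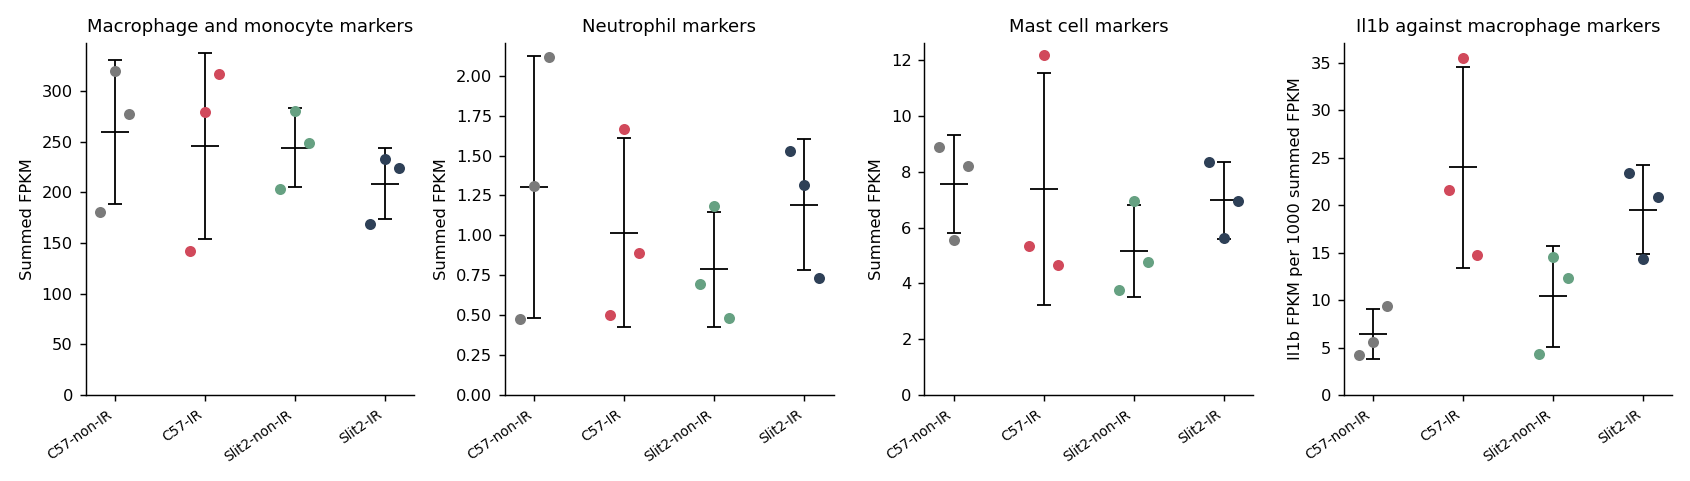
Summed FPKM of macrophage and monocyte, neutrophil and mast cell markers, and Il1b FPKM per 1000 summed macrophage FPKM, by group, with replicates 1 to 3 as points and mean and SD as bars. Macrophage sums overlap among the groups (142 to 320 FPKM), and neutrophil sums stay at or below 2.12 FPKM.

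Across the 12 libraries, the genes with the pattern most like Il1a were Ptp4a1 (Pearson r 0.984), Plek (0.969) and Serpina3f (0.968), on log2(FPKM + 1) values over all tested genes outside the 10. For Il1b they were Rab32 (0.927), Ereg (0.917) and Rgs16 (0.917). Il1rn was most like Clec4e (0.969), Serpina3f (0.964) and Il10 (0.961), so Serpina3f stood near both Il1a and Il1rn. Nlrp3 was nearest to Cxcl10 (0.982), Pde12 (0.980) and Fam46c (0.980), and Ptgs2 to F2r (0.960), Gem (0.957) and Tnfaip6 (0.95). Il1r2 was nearest to Usp27x, Uap1 and B4galt5 (0.975 each). Il1r1 was nearest to Atp8b1 (0.945), Nupr1 (0.943) and Anxa1 (0.939). Lower values were found for Il33, with Rgmb at 0.889, Fibin at 0.832 and Lrp12 at 0.820, and for Il1rl1, with Tmem108 at 0.876 and Cacng6 at 0.841. The points share the 12 libraries and the contrast of IR with non-IR hearts, and these were the highest of many values, so they are a description only.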

How the data were processed

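RNA from 12 mouse hearts (4 groups of 3) was sequenced by the authors on an Illumina HiSeq, paired-end, from NEBNext Ultra libraries. The submitters' processing notes name HISAT2 and mm10, and the counting tool, annotation release and use of strand are not given in the sources used here. The authors deposited FPKM values per gene and library with GRCm38 coordinates. Gene ends of the 10 genes were checked against GENCODE M21. Genotype came from the sample labels, and IR status from the letters in each sample title.

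The product of FPKM and gene length rose in whole steps in each library for 100% of values (tolerance 0.05 reads), which gave reads per gene and depth. The steps matched size factors common to all libraries. There were 0 unused columns. Genes entered the test with a level worth 10 reads at the median depth in 3 or more libraries and a total of 15 reads or more (15258 genes). Log2(FPKM + 1) values were fitted with limma (variance trend on mean level) over the 4 groups together, with Benjamini-Hochberg adjustment over all tested genes of a contrast and a threshold of 0.05. The labels call the samples independent without naming shared days or litters. No 2 libraries of a group agreed within counting noise (chi-square per gene from 8.66 to 54.3). Intervals on read ratios are exact binomial intervals at 95%.

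Replicate numbers are shared by the groups. Deviations of same-numbered libraries correlated above 0.1 in all 3 pairs of Slit2-IR with Slit2-non-IR (0.142 to 0.295), of Slit2-IR with C57-IR (0.154 to 0.362) and of Slit2-non-IR with C57-IR (0.191 to 0.586), a pair of groups not compared here. They did not in C57-IR with C57-non-IR (lowest 0.0837), Slit2-IR with C57-non-IR (0.0818) or Slit2-non-IR with C57-non-IR (0.0380).

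The members and gene lists were chosen with earlier results of these data known. All members were named. Of the IL-1 family, signalling, inflammasome, prostanoid and target lists, genes passing in any contrast and the 2 with the lowest p in the averaged IR contrast were named, and for each member the 3 most correlated genes, of which 1 is not reported here. Cell type markers are given as sums, with passing markers and some others named. Alternatives were a pseudocount of 0.1, other filters, only the libraries compared, the replicate block, TMM scaling, a robust prior variance, each library left out, and, added after the data were seen, limma-voom on recovered reads with and without the block. The scripts were tested on simulated data. Promoters came from RefSeq (GRCm38.p6), with a window for each of the 10 genes. Software was limma 3.58.1 in R 4.3.3, and pandas 2.3.3, scipy 1.17.1 and matplotlib 3.10.9 in Python 3.11.15.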

Additional observations from a re-analysis of the deposited data

How the results depend on the processing

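With IR averaged over genotypes, 5 genes passed, and 5 also with a pseudocount of 0.1, TMM scaling, a robust prior variance and both limma-voom fits. There were 2 of 10 without a filter beyond 1 read (Il1a and Ptgs2), 2 of 6 with at least 10 reads in every library (Nlrp3 and Ptgs2, since Il1a, Il1r2 and Il1rn are not tested there) and 3 to 5 with 1 library left out. All 5 kept their direction in every alternative that tested them. With the replicate block there were 6, as Il1b passed (adjusted p 0.0425, 0.0425 to 0.282 over its alternatives), and in C57BL/6J hearts 1, Il1a (adjusted p 0.0358, 0.0113 to 0.234). C57-IR with C57-non-IR does not meet the pairing rule and Slit2-IR with Slit2-non-IR does, so the averaged comparison meets it in part. The block changed no other adjusted call of the 9 genes. Other counts in C57BL/6J hearts were 2 with a pseudocount of 0.1, 2 with limma-voom and the block (Il1a and Il1rn in both), and 0 to 5 with 1 library left out. In Slit2-Tg hearts they were 2 with limma-voom and the block (Il1a and Il1rn) and 0 to 2 with 1 library left out, and 0 in the other fits. Both comparisons of genotypes and the interaction gave 0 in all fits. All-gene counts ranged from 299 to 824 for averaged IR, 3 to 254 in C57BL/6J hearts, 4 to 283 in Slit2-Tg hearts, 1 to 14 between genotypes without IR, 3 to 12 after IR, and 0 to 4 for the interaction. The cause of these moves was not tested.

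Signs turned only for differences that had not passed. With limma-voom they turned for the interaction of Il1rn (0.48) and for Il1rl1 between genotypes after IR (-0.031, -0.020 with the block and -0.022 with a pseudocount of 0.1). With limma-voom and the block they turned for the interaction of Il1r2 (-0.13), and for IR in C57BL/6J hearts of Il1rl1 (0.0078) and Il33 (-0.00078). With 1 library left out, IR in C57BL/6J hearts ranged from -0.047 to 0.032 for Il1rl1 and -0.17 to 0.16 for Il33. In Slit2-Tg hearts it ranged from -0.13 to 0.0059 for Il1rl1 and -0.44 to 0.077 for Il33, and averaged from -0.065 to 0.00074 and from -0.21 to 0.044. Genotypes without IR differed by -0.058 to 0.0074 for Il1a, -0.076 to 0.15 for Il1r1, -0.20 to 0.31 for Il33 and -0.11 to 0.55 for Ptgs2. After IR the ranges were -0.67 to 0.044 for Il1b, -0.23 to 0.038 for Il1r1, -0.085 to 0.11 for Il1r2, -0.071 to 0.061 for Il1rl1, -0.31 to 0.13 for Il33, -0.33 to 0.082 for Nlrp3 and -0.15 to 0.44 for Ptgs2. Interactions ranged from -0.23 to 0.030 for Il1r1, -0.095 to 0.098 for Il1r2, -0.12 to 0.010 for Il1rl1, -0.45 to 0.064 for Il33, -0.38 to 0.035 for Nlrp3 and -0.41 to 0.31 for Ptgs2.

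The planned count tests on recovered reads (edgeR and DESeq2) were not run, because the deposited values are FPKM. With 3 libraries a group, intervals are wide, and depth limits Il18, Il1r2, Il1a and Il1rn most.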
